A study of Mus musculus with 7 samples.

Results

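Complement genes were examined in the cortex of 7 APP/PS1 mice, 4 fed a control diet (CD) and 3 fed a ketogenic diet (KD). Of the 23413 gene symbols in the count tables, 9 were taken by name: the C1q chains C1qa, C1qb and C1qc, the components C3 and C4b, the receptor genes C5ar1 and Itgb2, and the regulators Serping1 and Csmd1. The rule used names only and no measured value, but the names were chosen with earlier results of these data known. All 9 had enough reads to be tested. The comparison asked which cortical transcripts differed after the diets.

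APP/PS1 is an amyloid model, B6.Cg-Tg(APPswe,PSEN1dE9)85Dbo/Mmjax, in which a mutated chimeric mouse/human amyloid precursor protein and a presenilin that lacks exon 9 are directed to neurons. All 7 mice carried both transgenes and no wild-type cortex was analysed here, so the values say nothing of the transgenes' own effect. The mice were 13 months old and had been on diet for 7 months, starting at 6 months of age. CD, which the sample labels call SD, gave 74% of its energy as carbohydrate, 16% as fat and 10% as protein. KD gave under 0.5% as carbohydrate, 90% as fat and 10% as protein. Mice were housed alone and both diets were given in equal calories. Each library was 1 mouse, and the labels do not give its sex, although the study used males and females.

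Complement is a protein cascade of innate immunity. C1q, assembled from 3 kinds of chain, binds its targets and starts the classical pathway, C4 and C2 then form the enzyme that cleaves C3, and fragments of C3 tag surfaces for receptors such as the integrin of Itgam and Itgb2. In brain, microglia make most C1q, astrocytes make C4 and C3, and complement is best known there for the tagging of synapses that microglia remove during development and in amyloid models. Serping1 encodes the C1 inhibitor, a plasma serpin that inactivates C1r and C1s, and Csmd1 encodes a large neuronal membrane protein with CUB and sushi domains that limits complement activity.

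Sequences bear on these genes in 2 places. The first is C4b, at chr17:34728380-34743882 on the minus strand (GRCm38), whose close copy C4a lies on the same chromosome and strand. Their longest annotated transcripts are 5379 and 5371 bases long and were identical at 96.1% of 5367 aligned bases. Of the 50-base words in the C4b transcript, 35.2% also occur in C4a, so that reads of this length cannot all be assigned to 1 gene. The stretch below lies in exon 21 of both, at chr17:34735430-34735519 for C4b and chr17:34816086-34816175 for C4a. It is shown because its 14 differences tell the genes apart. Capitals mark the bases that differ.
C4b: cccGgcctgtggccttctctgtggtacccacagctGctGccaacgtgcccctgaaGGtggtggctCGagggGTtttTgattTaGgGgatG
C4a: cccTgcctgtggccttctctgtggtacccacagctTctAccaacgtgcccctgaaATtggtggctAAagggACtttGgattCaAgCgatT

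The second place is the block of C1q genes on chromosome 4, where C1qb (chr4:136880129-136886187), C1qc (chr4:136889804-136893065) and C1qa (chr4:136895917-136898803) lie side by side on the minus strand. RefSeq promoter windows on GRCm38.p6 were at hand for C1qb, C1qc, C3 and C5ar1. The bases upstream of both the RefSeq and the GENCODE start are printed for C1qb (chr4:136886201-136886450) and C1qc (chr4:136893066-136893164), since these 2 genes had the most similar levels across mice. Capitals mark the letters GAGGAA, the core that the myeloid factor PU.1 recognises, read on either strand (TTCCTC on the other).
C1qb: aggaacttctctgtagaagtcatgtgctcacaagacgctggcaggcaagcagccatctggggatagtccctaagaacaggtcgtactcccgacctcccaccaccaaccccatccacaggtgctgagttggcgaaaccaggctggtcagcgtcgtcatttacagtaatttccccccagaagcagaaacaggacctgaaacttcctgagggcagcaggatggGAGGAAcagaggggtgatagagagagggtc
C1qc: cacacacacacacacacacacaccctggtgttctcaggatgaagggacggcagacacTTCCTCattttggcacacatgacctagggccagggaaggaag

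Each of these windows held 1 copy within the 250 bases before the RefSeq start, and the windows of C3 and C5ar1 held 0. The same letters occur in 23.3% of 32851 RefSeq promoter windows of that length, so their presence is a description and not a binding site.

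Expression is given as CPM, the count of a gene for every 1000000 counts of its library. The libraries held 22272883 to 36614954 counts. A count of 3, taken as the lowest that can be told from 0, equals 0.0819 to 0.135 CPM. CD replicate 4 stood apart and touches several results. It had the highest level of 9 of 9 meningeal fibroblast markers, with a summed 420 CPM against 57.6 to 173 in the others, of 7 of 7 endothelial markers, and of 5 of 5 olfactory bulb markers (66.7 against 3.72 to 16.5 CPM). Its summed homeostatic microglia markers were the lowest, at 443 CPM against 592 to 844. KD replicate 1 had the highest sums of homeostatic microglia, plaque-associated microglia and astrocyte markers, at 844, 1593 and 7837 CPM. The other libraries had 443 to 745, 949 to 1353 and 5318 to 6629 CPM. What part this has in the complement values of KD replicate 1 was not tested. Cortical neuron markers were present in every library, with Slc17a7, the vesicular glutamate transporter of cortical excitatory neurons, at 445 to 630 CPM.

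No complement gene of the 9 was called different between the diets. None passed a Benjamini-Hochberg adjusted p of 0.05 in edgeR's quasi-likelihood test, nor the study's unadjusted threshold of 0.01, which 0.321% of the 15881 tested genes passed, nor an unadjusted 0.05, which 3.19% passed. CD and KD values overlapped for all 9, whereas the groups lay apart for 4.11% of tested genes. Of the 9 fold changes, 6 were above 0 and 3 below, with a median of 0.155 on the log2 scale, beside -0.00329 for all tested genes. At this number of mice the intervals of the difference remain wide for most members.

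**Figure D1:**
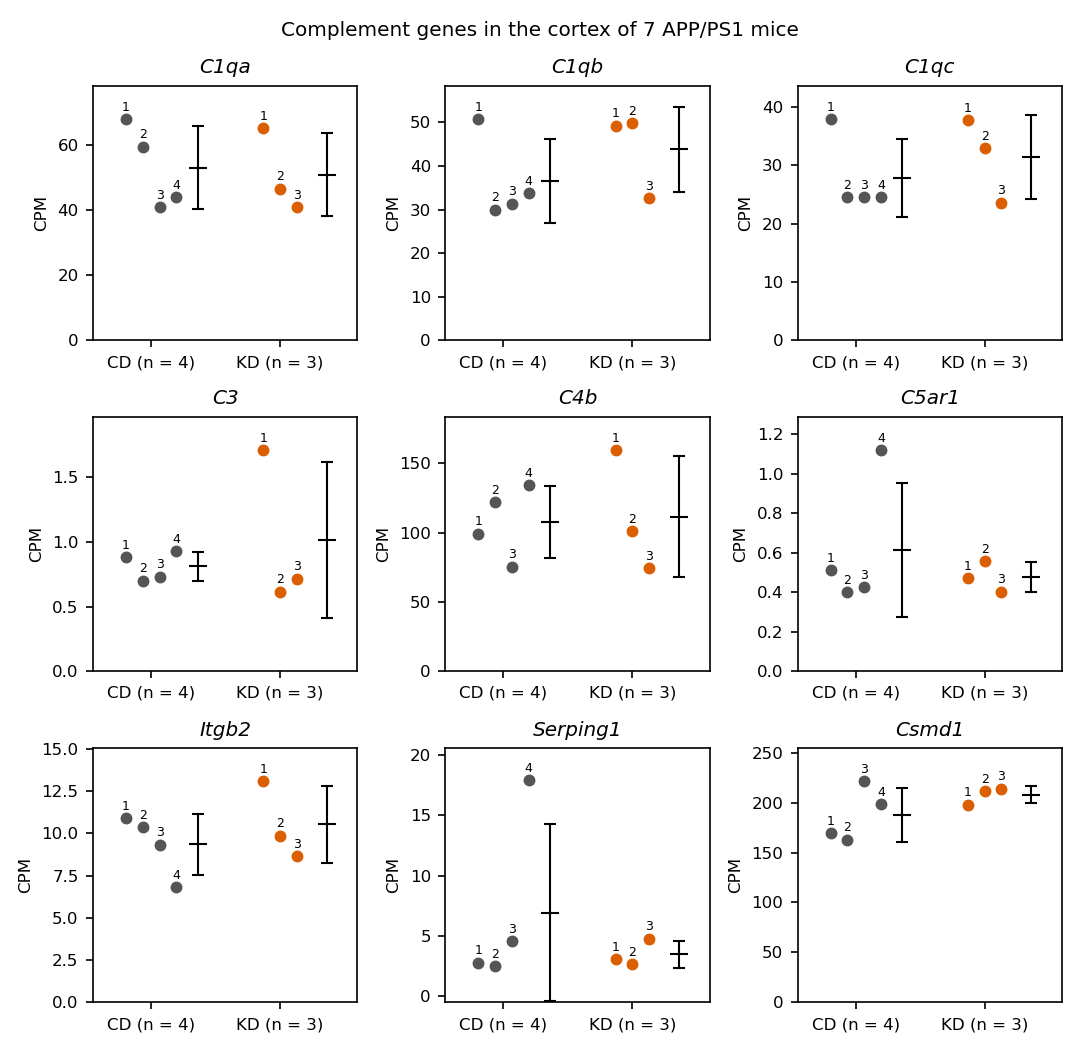
CPM of each complement gene (y axis, linear) in each mouse by diet. Points are mice with their replicate number, and the line beside each group is the mean with its SD (CD n = 4, KD n = 3). CD and KD points overlap in every panel, Serping1 in CD replicate 4 lies at 17.9 CPM, and its SD bar there reaches below 0.

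The C1q chains were high, and mice on the same diet differed by more than the group means did. C1qa, the A chain, measured 67.8, 59.4, 40.8 and 43.9 CPM in CD replicates 1 to 4 and 65.0, 46.5 and 40.9 CPM in KD replicates 1 to 3. The means were 52.95 ± 12.81 CPM (SD, n = 4) and 50.79 ± 12.66 CPM (SD, n = 3). Both groups spanned nearly the same range, with replicate 1 the highest in each. The lowest values were those of CD replicates 3 and 4 and KD replicate 3, the libraries low in Xist, described below. The log2 fold change, KD against CD, was -0.05 (SE 0.23, 95% interval -0.57 to 0.47), with an edgeR adjusted p of 0.993.

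C1qb, the B chain, measured 50.7, 29.96, 31.3 and 33.8 CPM in CD and 49.2, 49.7 and 32.6 CPM in KD. Its log2 fold change was 0.28 (SE 0.22, 95% interval -0.23 to 0.79; edgeR adjusted p = 0.979, exact two-sided permutation p = 0.457). In CD, replicate 1 was high and the other 3 were close together, whereas in KD 2 of 3 mice were close to that CD mouse. Without CD replicate 1, the C1qb difference was 0.48 with an unadjusted edgeR p of 0.0278 and an adjusted p of 1.

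C1qc, the C chain, had the same high mouse in CD as C1qb, at 37.9, 24.5, 24.5 and 24.5 CPM, and measured 37.8, 32.9 and 23.6 CPM in KD. CD replicate 1 was again above 3 nearly equal mice, and the KD values spread over nearly the whole CD range. Its difference on the log2 scale was 0.18 (SE 0.22, 95% interval -0.31 to 0.68; edgeR adjusted p = 0.979).

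C1q is built from equal numbers of the 3 chains, and the transcripts kept unequal but related proportions. There were 0.661 to 0.818 C1qc counts for each C1qb count, with a coefficient of variation of 6.72% over the 7 mice. The ratio of C1qb to C1qa counts was looser, at 0.748, 0.505, 0.769 and 0.77 in CD and 0.756, 1.07 and 0.798 in KD, a coefficient of variation of 21.2%. The lowest ratio was in CD replicate 2, where C1qa was high while C1qb was not, and the highest was in KD replicate 2, where the reverse held. Across the 7 mice the log2 CPM of C1qb and C1qc correlated with a coefficient of 0.963, beside 0.755 for C1qa with C1qc and 0.587 for C1qa with C1qb. These coefficients are descriptions, since the genes share each library.

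C1q varied with the markers of homeostatic microglia, a list of 12 genes that includes P2ry12, Tmem119 and Cx3cr1. Over the 7 mice, the mean log2 CPM of the 3 chains correlated with that of the list at Pearson's r = 0.804 (exact permutation p = 0.00853, adjusted over 5 relations 0.0213) and Spearman's rho = 0.821 (exact permutation p = 0.0341, adjusted 0.0852). Without CD replicate 4 and KD replicate 1, the mice farthest from the median of the list, r was 0.928. The rank correlation missed the threshold after adjustment, and the diet groups of 4 and 3 mice were too small for a coefficient within each. Leaving out single mice gave r between 0.723 and 0.921, and the adjusted p was above 0.05 without CD replicate 1, 2 or 3 (r = 0.755, 0.807 and 0.835) and without KD replicate 1 or 2 (r = 0.723 and 0.814). Members and lists were chosen with earlier results of these data known, so the p-values of the 5 relations are descriptions. In a bulk sample, fewer cells of a type and less RNA per cell cannot be told apart.

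Summed over the chains, C1q amounted to 21.0%, 18.7%, 16.3% and 23.1% of the summed CPM of these microglial markers in CD and to 18.0%, 20.4% and 15.8% in KD. The highest percentage was in CD replicate 4, the mouse with the lowest summed CPM of those markers. The groups overlapped, with means of 19.8 ± 2.92% (SD, n = 4) and 18.1 ± 2.31% (SD, n = 3). The homeostatic microglia list itself held 9 genes with a fold change above 0 and 3 below, beside 49.0% of all tested genes above 0. None had an edgeR adjusted p under 0.05.

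**Figure D2:**
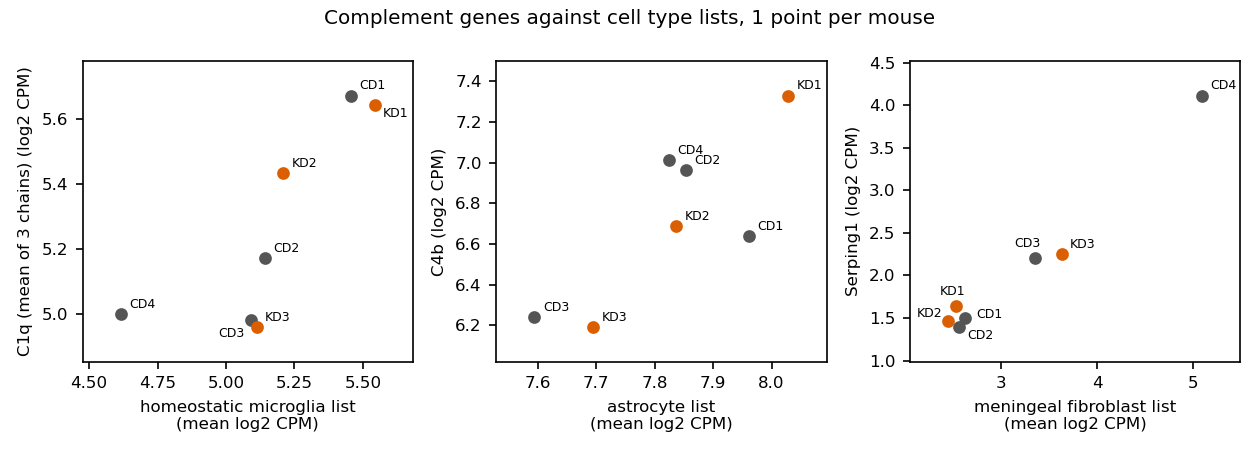
Log2 CPM of C1q (mean of its 3 chains), C4b and Serping1 (y axes) against the mean log2 CPM of the homeostatic microglia, astrocyte and meningeal fibroblast lists (x axes), 1 point per mouse, CD in grey and KD in orange. Pearson's r is 0.804, 0.812 and 0.986 over the 7 mice, and CD replicate 4 lies far from the others in the first and last panels.

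The central components C3 and C4b differed greatly in level and in neither case between the diets. C3, at chr17:57203970-57228136, encodes the protein on which all pathways of complement converge. It was barely transcribed, with 16 to 40 counts per library, or 0.884, 0.702, 0.732 and 0.929 CPM in CD and 1.71, 0.617 and 0.718 CPM in KD. KD replicate 1 was 1.84-fold above the next highest mouse, and the other KD mice lay within or below the CD range. The log2 fold change of 0.32 (SE 0.41, 95% interval -0.62 to 1.27; edgeR adjusted p = 0.982) turned to -0.28 without KD replicate 1, with an edgeR adjusted p of 0.944.

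C4b encodes the mouse C4 that the classical and lectin pathways cleave. It measured 99.3, 122, 75.4 and 134 CPM in CD and 159, 101 and 74.1 CPM in KD. The groups spanned overlapping ranges, with the highest and the lowest mouse both in KD. The means were 107.7 ± 25.87 CPM (SD, n = 4) and 111.5 ± 43.51 CPM (SD, n = 3), for a log2 fold change of 0.07 (SE 0.27, 95% interval -0.56 to 0.69; edgeR adjusted p = 0.993). The sign turned without KD replicate 1, to -0.285, and without CD replicate 3, to -0.0694, with edgeR adjusted p of 0.931 and 0.963.

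Counts listed under C4a, the copy whose sequence is compared with C4b above, equalled 1.46%, 1.81%, 5.26% and 0.612% of those of C4b in CD and 0.591%, 3.11% and 3.76% in KD. The percentage was highest in CD replicate 3 and KD replicate 3, both low in C4b, and lowest in CD replicate 4 and KD replicate 1, both high in C4b. Whether reads common to both genes were dropped or shared is not given in the sources used here, so the C4b levels are uncertain to that extent.

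Across mice, C4b varied with the astrocyte list (10 genes, among them Gfap and Aqp4), at Pearson's r = 0.812 (exact permutation p = 0.0274, adjusted 0.0457) and Spearman's rho = 0.643 (exact permutation p = 0.139, adjusted 0.232). Without CD replicate 3 and KD replicate 1, r was 0.522. The relation rests on those mice. Its p-values are descriptions, for the reason given for C1q. Leaving out single mice gave r from 0.695 to 0.928, and the adjusted p was above 0.05 in each case but that without CD replicate 1. CD replicate 3 and KD replicate 3, the mice with the least C4b, also had the least of 7 mature oligodendrocyte markers, at a summed 1069 and 1118 CPM, where the other mice had 2072 to 4152 CPM. The part of tissue makeup in the C4b values was not tested further. The relation of C3 to 14 plaque-associated microglia markers did not pass the threshold (Pearson's r = 0.628, exact permutation p = 0.172, adjusted 0.215; Spearman's rho = 0.25, exact permutation p = 0.595, adjusted 0.595), and without CD replicate 4 and KD replicate 1 the coefficient r was 0.291.

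Both receptor genes overlapped between the diets. C5ar1, at chr7:16246743-16259540, encodes the receptor through which the fragment C5a attracts and activates myeloid cells. It had 9 to 41 counts per library, or 0.513, 0.401, 0.427 and 1.12 CPM in CD and 0.47, 0.558 and 0.404 CPM in KD. CD replicate 4 was 2.01-fold above the next highest mouse, and the other 6 lay close together. C5ar1 had a log2 fold change of -0.34 (SE 0.46, 95% interval -1.38 to 0.71; edgeR adjusted p = 0.982) which became 0.10 without CD replicate 4, with an edgeR adjusted p of 0.993. That library also had the most reads from 7 of 9 listed blood and border myeloid markers, at a summed 37.8 CPM against 11.6 to 21.7 CPM in the others, and their part in the C5ar1 value was not tested.

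Itgb2, at chr10:77530252-77565708 on the plus strand, encodes the integrin beta chain that pairs with the products of Itgam and Itgax to form complement receptors 3 and 4 for C3 fragments. It measured 10.9, 10.4, 9.33 and 6.83 CPM in CD and 13.1, 9.87 and 8.67 CPM in KD. The highest mouse was in KD and the lowest was CD replicate 4, the library with the lowest summed CPM of homeostatic microglia markers. On the log2 scale the difference was 0.18 (SE 0.22, 95% interval -0.32 to 0.68; edgeR adjusted p = 0.982). It was -0.0315 with the homeostatic microglia list as a covariate and -0.0081 without KD replicate 1, with edgeR adjusted p of 0.985 and 0.999.

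Itgam, the alpha chain that pairs with Itgb2 in complement receptor 3 (CD11b/CD18), measured 35.8, 34.3, 32.5 and 25.0 CPM in CD and 50.8, 42.9 and 38.1 CPM in KD. Every KD mouse was above every CD mouse, and the groups lay apart, in either direction, for 4.11% of all tested genes. The log2 fold change was 0.47 (SE 0.16; unadjusted edgeR p = 0.0181, adjusted p = 0.979), and the exact two-sided permutation p was 0.0571, the smallest that 4 against 3 mice can give. Itgam is therefore not called over all genes. With the homeostatic microglia list as a covariate the difference was 0.31 (edgeR adjusted p = 0.916, unadjusted 0.0163). Without KD replicate 1 it was 0.35 (edgeR adjusted p = 0.931, unadjusted 0.0802). Fold changes were also above 0 for 9 of 12 homeostatic and 13 of 14 plaque-associated microglia markers, beside 49.0% of all tested genes. None of these markers had an adjusted p under 0.05, and their part in the Itgam value was not tested beyond that covariate. With both chains counted in the same library, Itgb2 counts equalled 30.4%, 30.2%, 28.7% and 27.3% of Itgam counts in CD and 25.8%, 23.0% and 22.7% in KD. The KD percentages were all below the CD percentages, a ratio chosen after its values were seen and given with no test.

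Among the regulators, Serping1 had the largest fold change and the largest spread. Serping1, at chr2:84765387-84775444, measured 2.76, 2.51, 4.55 and 17.9 CPM in CD and 3.04, 2.64 and 4.76 CPM in KD. A single CD mouse, replicate 4, was 3.76-fold above the next highest, and the other 3 CD mice spanned the same range as KD. The log2 fold change was -0.97 (SE 0.68, 95% interval -2.52 to 0.58), with an edgeR adjusted p of 0.979 and an exact two-sided permutation p of 0.857. Without CD replicate 4 it was 0.07, with an edgeR adjusted p of 0.993.

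Serping1 varied with meningeal fibroblast genes over the mice. With a list of 9 such genes Pearson's r was 0.986 (exact permutation p = 0.00377, adjusted 0.0188) and Spearman's rho 0.821 (exact permutation p = 0.0341, adjusted 0.0852), and r was 0.946 without CD replicate 4 and KD replicate 3. After CD replicate 4, KD replicate 3 and CD replicate 3 were next highest for both measures. Without CD replicate 3 or CD replicate 4, however, the adjusted p was above 0.05 (r = 0.986 and 0.961). Lum, a collagen-binding proteoglycan gene of the list, stood at 19.1 CPM in CD replicate 4 against 1.94 to 4.67 CPM elsewhere, and Serping1 counts equalled 93.6% to 142% of Lum counts in every library, with CD replicate 4 at the low end. The p-values of this relation are descriptions too, since members and lists were chosen with earlier results known. What part these markers have in the Serping1 values was not tested beyond this.

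Csmd1, at chr8:15892537-17535586, measured 169, 163, 221 and 198 CPM in CD and 198, 211 and 214 CPM in KD. It was the steadiest of the 9, with a coefficient of variation of 11.4% over the 7 mice. The KD mice lay close together inside the wider CD range. The means were 188.0 ± 27.11 CPM (SD, n = 4) and 207.7 ± 8.54 CPM (SD, n = 3), and the log2 fold change was 0.16 (SE 0.11, 95% interval -0.10 to 0.41; edgeR adjusted p = 0.979). Without CD replicate 3 the difference was 0.25 with an unadjusted edgeR p of 0.0258 and an adjusted p of 0.674. The relation of Csmd1 to 8 cortical neuron markers did not pass the threshold (Pearson's r = -0.278, exact permutation p = 0.536, adjusted 0.536; Spearman's rho = -0.286, exact permutation p = 0.556, adjusted 0.595), and r was -0.456 without CD replicate 4 and KD replicate 3.

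**Figure D3:**
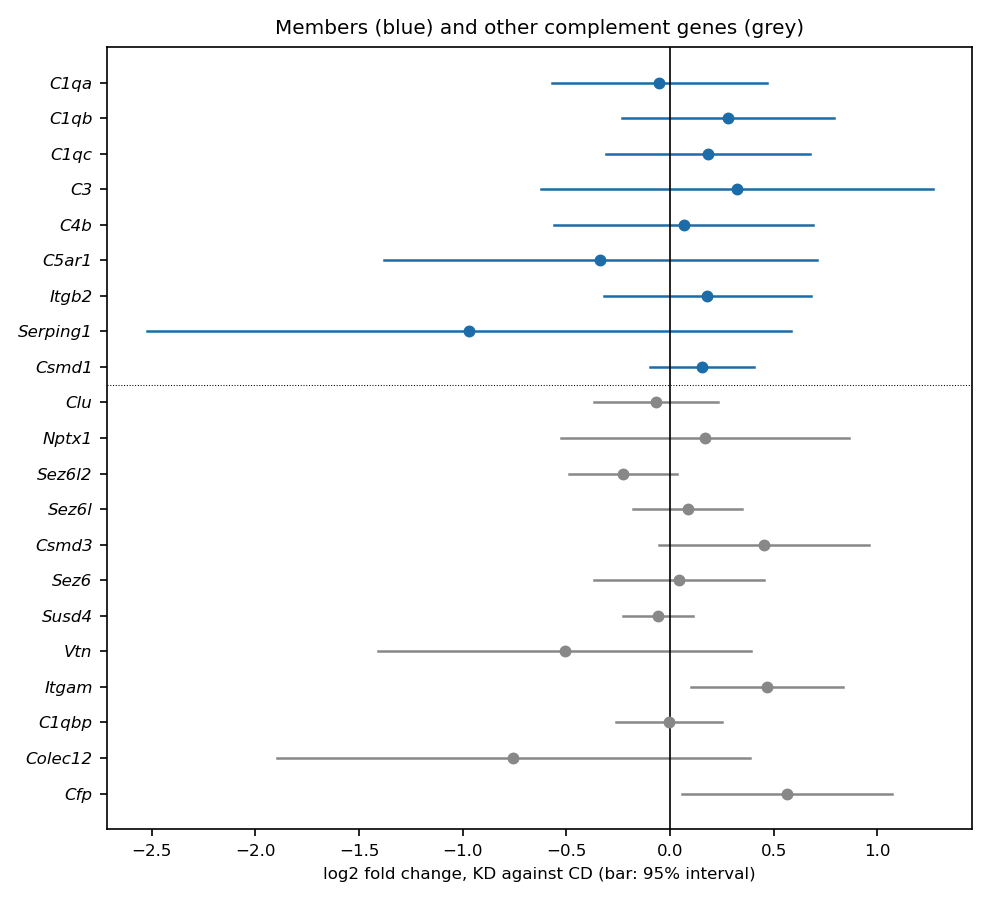
Log2 fold change of KD against CD (x axis) for the 9 complement genes (blue) and 12 other complement genes named in the text (grey), with the 95% interval from edgeR's quasi-likelihood fit as a bar. All 9 blue bars cross 0, the longest being that of Serping1, and among the grey bars only those of Itgam and Cfp lie wholly above 0.

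Set per kilobase of annotated exon, which allows genes to be compared, the levels spanned a wide range. C1qa was highest at a mean of 50.02 CPM per kb, followed by C1qb at 36.4, C4b at 19.2, C1qc at 15.2, Csmd1 at 10.3, Itgb2 at 3.23, Serping1 at 2.34, C5ar1 at 0.216 and C3 at 0.175. C1qa was 286-fold and C4b 110-fold above C3. Neighbours whose ranges over the mice overlapped were C1qa and C1qb, C1qb and C4b, C4b and C1qc, Itgb2 and Serping1, and C5ar1 and C3. Ranges were separate between C1qc and Csmd1, between Csmd1 and Itgb2, and between Serping1 and C5ar1. With the length of the longest transcript in place of all annotated exons, C1qc took the third place, at 24.4 CPM per kb, above C4b at 20.3.

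**Figure D4:**
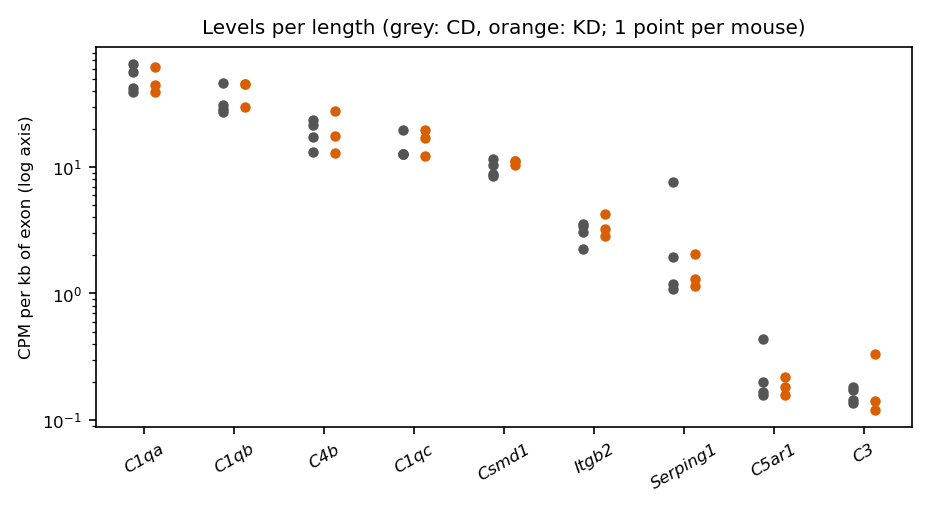
CPM per kilobase of exon (y axis, log scale) of the 9 complement genes in order of their mean, 1 point per mouse, CD in grey and KD in orange. C1qa leads at a mean of 50.02 and C3 is last at 0.175, and within each gene both diets cover overlapping levels.

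Of 60 other complement genes listed by role, 59 were in the count tables and 39 could be tested. Of these, 13 had a fold change above 0 and 26 below, with a median of -0.109 on the log2 scale, beside 49.0% of all tested genes above 0 and a median of -0.00329. Without CD replicate 4, 18 were above 0 and 20 below, with a median of -0.0236. An unadjusted edgeR p under 0.05 was reached by 2, Itgam and Cfp, both higher in KD (1.66% of all tested genes were higher at that threshold), and by 0 lower (1.52%). None had an adjusted p under 0.05. The groups lay apart for 3 of the 39, Itgam and Cfp above and Cd59a below, beside 4.11% of all tested genes. Cfp encodes properdin, which stabilises the alternative pathway's C3-cleaving enzyme, and measured 2.56, 1.91, 3.14 and 3.03 CPM in CD and 4.19, 3.88 and 3.64 CPM in KD. All 3 KD mice were above the 4 CD mice, with a log2 fold change of 0.56 (SE 0.22; unadjusted edgeR p = 0.033, adjusted p = 0.979; exact two-sided permutation p = 0.0571). Its unadjusted edgeR p was above 0.05 without CD replicate 1 or 2 (0.0704 and 0.0649) and without KD replicate 1 or 2 (0.0923 and 0.0779), with log2 fold changes of 0.55, 0.44, 0.51 and 0.56 and adjusted p from 0.931 to 1.

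The genes listed under initiation of the classical and lectin pathways had 9 tested. Of these, 1 was above 0 (C4a, at 0.13 with an edgeR adjusted p of 0.993) and 8 proteases and lectins were below. Their median log2 fold change was -0.315. The largest in level was Colec12, at 12.3 to 62.8 CPM with a log2 fold change of -0.76 (SE 0.50; edgeR adjusted p = 0.979). It encodes a membrane scavenger collectin and was listed by family, not for a known part in initiation. Of the 15 genes so listed, 6 were highest in CD replicate 4, Colec12 among them. The alternative pathway had 2 tested genes, 1 above and 1 below 0. Most terminal pathway genes were near the limit of detection, with 3 of 7 tested. Of these 3, 2 were above 0 and 1 below, with a median log2 fold change of 0.717 and no adjusted p under 0.05.

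Soluble inhibitors beside Serping1 were led by Clu, clusterin, an inhibitor of the terminal complex that astrocytes make, at 423 to 647 CPM with a log2 fold change of -0.07 (SE 0.13; edgeR adjusted p = 0.983). Vtn, vitronectin, another inhibitor of the terminal complex, ranged from 41.4 to 146 CPM (-0.51, SE 0.39, edgeR adjusted p = 0.979). All 3 tested soluble inhibitors lay below 0, and all 3 were highest in CD replicate 4. The listed soluble inhibitors summed to 900 CPM in that library and to 535 to 672 CPM in the others. How far that library sets their direction was not tested. Membrane regulators had 6 tested genes, 1 above 0 and 5 below, and among them Cd59a, a lipid-anchored inhibitor of the terminal complex, had all KD mice (7.18, 3.23 and 6.82 CPM) below all CD mice (7.98, 7.52, 7.44 and 12.2 CPM), with an edgeR adjusted p of 0.979 (exact two-sided permutation p = 0.0571). Cd59a was named after its values were seen.

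Neuronal proteins related to Csmd1 by their CUB or sushi domains had 6 tested genes, 3 above 0 and 3 below. Csmd3, of the same family as Csmd1, measured 94.2, 114, 152 and 134 CPM in CD and 156, 120 and 230 CPM in KD. Csmd2 was listed but had no matching symbol in the count tables. The groups overlapped, and the log2 fold change was 0.45 (SE 0.22; edgeR adjusted p = 0.979). Sez6l2 (207 to 290 CPM, log2 fold change -0.23), Sez6l (168 to 228 CPM, 0.09), Sez6 (68.3 to 113 CPM, 0.04) and Susd4 (63.5 to 70.9 CPM, -0.06) had adjusted p between 0.979 and 0.993. Nptx1, a neuronal pentraxin, a family that binds C1q, ranged from 139 to 374 CPM with a log2 fold change of 0.17, and C1qbp, which encodes a mitochondrial protein named for its binding to C1q, ranged from 24.3 to 31.2 CPM with a log2 fold change of -0.00387.

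Xist, the transcript expressed from the inactive X chromosome of females, lay at 2 separate levels, and the members were set against it. CD replicates 1 and 2 had 250 and 242 CPM and KD replicates 1 and 2 had 526 and 321 CPM, whereas CD replicates 3 and 4 had 3.08 and 2.38 CPM and KD replicate 3 had 0.314 CPM. In an edgeR fit with diet and the log2 CPM of Xist, the slope per log2 unit of Xist was 0.07 for C1qa (unadjusted p = 0.00314, adjusted p = 0.118), 0.06 for C1qb (0.0178 and 0.223) and 0.06 for C1qc (0.00879 and 0.173). Itgb2 had a slope of 0.05 (0.0296 and 0.274) and Serping1 one of -0.17 (0.031 and 0.28). These 5 of 9 members had an unadjusted p under 0.05, as did 15.0% of all tested genes. At 0.01 there were 2, C1qa and C1qc, beside 5.52% of all genes, and none of the 9 passed adjustment, as 0.277% of all genes did. C1qa measured 46.5 to 67.8 CPM in the libraries high in Xist and 40.8 to 43.9 CPM in the others. Itgb2 measured 9.87 to 13.1 against 6.83 to 9.33 CPM, and Serping1 2.51 to 3.04 against 4.55 to 17.9 CPM. The other members overlapped between these libraries. The share of all genes that lay apart in this way was not counted. With Xist in the fit, the C4b difference between diets was -0.0266 and no member's diet difference passed an unadjusted 0.05. The Y-linked gene Ddx3y split the other way, at 300.6, 345.8 and 334.5 CPM in CD replicates 3 and 4 and KD replicate 3. It was at 0.0428 to 0.301 CPM in the others, and Uty, Kdm5d and Eif2s3y split alike. The sexes of the mice are not labelled. By these transcripts CD replicates 1 and 2 and KD replicates 1 and 2 were female and the rest male. The libraries low in Xist also had more of the meningeal fibroblast list, at a mean log2 CPM of 3.35 to 5.093 against 2.446 to 2.625. They had less of the homeostatic microglia list, at 4.615 to 5.112 against 5.143 to 5.543. The plaque-associated microglia, brain endothelium, mature oligodendrocyte and cortical neuron lists overlapped. What part these lists have in the Xist slopes, and what else the libraries differed in, was not tested.

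**Figure D5:**
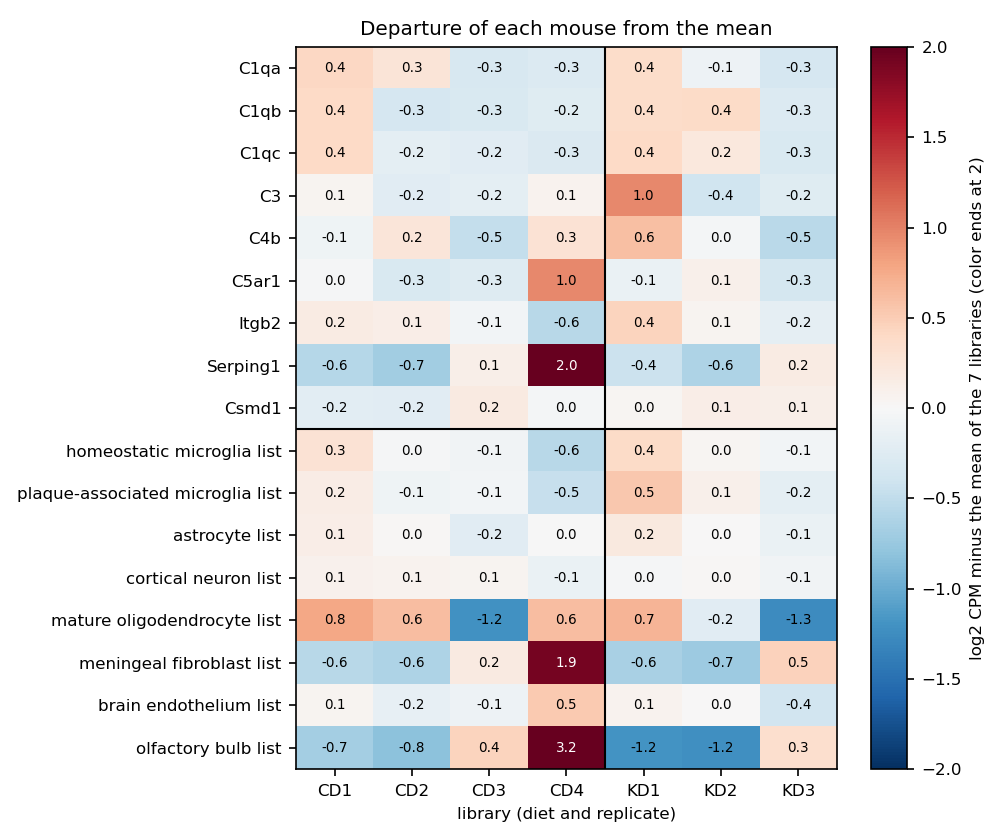
Log2 CPM of each complement gene (upper rows) and mean log2 CPM of each cell type list (lower rows) in each library, minus the mean of the 7 libraries, as printed in the cell, red above and blue below the mean, with color ending at 2. CD replicate 4 (CD4) is high in Serping1, C5ar1 and the meningeal, endothelial and olfactory bulb lists and low in both microglia lists, and KD replicate 1 (KD1) is high in C3 and C4b.

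The tested genes whose log2 CPM was most like each pattern over the 7 libraries were listed by Pearson's coefficient, as a description with no test. Closest to C1q were Themis2 (0.996), a signalling adaptor of myeloid and B cells, I830012O16Rik (0.959), Npc2 (0.953), Elk3 (0.951) and Scd1 (0.944). Closest to Itgb2 were Fcgr3 (0.989), an Fc receptor of myeloid cells, Ip6k3 (0.988), Mpeg1 (0.987), a perforin-like protein of macrophages, Plek (0.987) and Havcr2 (0.985). For Serping1 they were Gjb2 (0.995), a gap junction gene expressed in leptomeninges, Svep1 (0.993), Lum (0.992), Gpr124 (0.991) and Tbx15 (0.99).

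C5ar1 was closest to Rapgef3 (0.987), Wdr16 (0.978), Zfp784 (0.973), Vwf (0.972), a clotting factor made by endothelium, and Mmrn2 (0.972). C3 was closest to Tmeff1 (0.993), Trim30a (0.974), Atad2b (0.974), Wnk1 (0.973) and Entpd1 (0.962). The patterns of C3, C5ar1 and Serping1 are each dominated by 1 high mouse, so that any gene high in the same mouse comes out alike. C4b was closest to Cldn25 (0.979), Serinc3 (0.975), Npc1 (0.971), the lysosomal cholesterol transporter, Tmx3 (0.967) and BC002163 (0.966). Csmd1 was closest to Srsf7 (0.989), Meg3 (0.987), Trappc11 (0.986), Adamts3 (0.983) and Rbm5 (0.983), and the likeness of patterns among 15881 genes over 7 mice includes chance matches.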

How the data were processed

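Cortex RNA from 7 APP/PS1 mice was read from stranded total RNA libraries in 50-base paired-end mode. The authors checked reads with FASTQC, aligned them to mm10 with STAR, and took gene counts from STAR's own HTSeq-type counting. The authors deposited these raw counts by gene symbol, 1 table per mouse, neither normalized nor pooled. Tool versions, annotation and strand setting are not given in the sources used here.

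Of 23413 symbols, 23025 (98.3%) were matched to GENCODE M21 on GRCm38, 1248 through older names, which gave positions and exon lengths. The only gene in the tables that overlaps a member is Mir3106, inside Csmd1, with at most 8 counts. Groups and replicates came from the labels. Each library was a separate mouse, and no pair of libraries was a repeat of another.

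KD was compared with CD by edgeR 4.0.16 in R 4.3.3 (filterByExpr on diet, TMM, estimateDisp, glmQLFit with robust=TRUE, glmQLFTest), over all 15881 genes that passed the filter, which held 99.97% of counts. The study's text names edgeR and TMM but not the test. Log2 CPM values used a prior count of 2, and the 95% intervals used the fit's degrees of freedom. Single genes and correlations were tested by exact permutation (35 splits of the mice, or all pairings). The fitting code was tested on simulated counts. Replicate numbers 1 to 3 occur in both groups, and the main fit did not pair the mice by them. Deviations of same-numbered libraries correlated at 0.251, 0.195 and 0.098. Xist was high in both libraries numbered 1 and 2 and low in both numbered 3. Differently numbered libraries were not compared, so these values cannot tell whether the numbers pair mice.

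Members and lists were chosen with earlier results of these data known. Named genes were the 9 members, the other complement genes with an unadjusted p under 0.05 or among the 12 of highest mean CPM, and the 5 genes most like each member; 1 gene so chosen is not reported here. Alternatives were RLE, upper-quartile and library-size scaling, filters of at least 1 count or at least 1 CPM in 3 libraries, edgeR's likelihood-ratio test, DESeq2 1.42.0, limma-voom 3.58.1, robust=FALSE, a replicate block, a covariate (Xist or the microglia list), and the omission of each library in turn. Protein and slice measurements were not analysed here.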

Additional observations from a re-analysis of the deposited data

Results flagged for a closer look

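Among 23 values of the members and cell type lists examined within the 4 CD libraries, 4 had a highest or lowest library whose gap to its nearest neighbour, as a share of the group's range, exceeded Dixon's 95% critical value for 4 samples. Chance flags about 1 in 20. The log2 CPM of C1qb in CD replicate 1 was 5.67 against 4.94 to 5.03 in the other CD libraries, a share of 0.88, and that of C1qc was 5.25 against 4.57 to 4.65, a share of 0.876. These genes share each library and are not independent. The ratio of C1qb to C1qa counts in CD replicate 2 was 0.505 against 0.748 to 0.77, a share of 0.918. The mean log2 CPM of the cortical neuron list in CD replicate 4 was 8.88 against 9.07 to 9.1, a share of 0.875.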

How the results depend on the processing

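No member passed an adjusted p of 0.05 or an unadjusted 0.01 under any alternative run, and the lowest adjusted p was 0.674. Of 169 member fold changes over 19 alternatives, 155 kept their direction and 14 changed it, and C1qb, C1qc and Csmd1 kept theirs in all. C3 and C5ar1 gave no value with at least 1 CPM in 3 libraries. The log2 fold change of C4b was -0.0266 with Xist as a covariate. With the homeostatic microglia list as a covariate, that of Itgb2 was -0.0315 and that of Serping1 was 0.0569. With a replicate block over the libraries numbered 1 to 3, which leaves out CD replicate 4, C5ar1 was at 0.092 and Serping1 at 0.0849, 0 members and 3 other complement genes (Cfp, Itgam and Csmd3) had an unadjusted p under 0.05, and 182 of all genes had one of at most 0.01. With the microglia covariate Cfp had an unadjusted p of 0.051. The median log2 fold change of the other complement genes, -0.109, was -0.0173 with the microglia covariate, -0.034 with the replicate block and -0.164 to -0.0236 on leaving out a library (-0.0236 without CD replicate 4), and that of the members, 0.155, was 0.0117 with the microglia covariate. The cause of these shifts was not tested.

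Leaving out each library gave log2 fold changes from -0.274 to 0.0923 for C1qa (above 0 without CD replicate 1 or 2 or KD replicate 3), -0.279 to 0.587 for C3, -0.285 to 0.297 for C4b, -0.484 to 0.099 for C5ar1, -0.0081 to 0.311 for Itgb2 and -1.25 to 0.0727 for Serping1, and a median over the members from -0.274 (without KD replicate 1) to 0.297. Members with an unadjusted p under 0.05 numbered 0 to 1 (C1qb without CD replicate 1, Csmd1 without CD replicate 3), and other complement genes 1 to 7 (1 without CD replicate 1 or 2 or KD replicate 1, 7 without CD replicate 3) or, at 0.01, 0 to 2 (2 without CD replicate 3, 1 without KD replicate 3). Pearson's r ranged from 0.723 to 0.921 for C1q, -0.351 (without KD replicate 1) to 0.874 for C3, 0.695 to 0.928 for C4b and 0.961 to 0.994 for Serping1.

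Over all genes, 51 with an unadjusted p of at most 0.01 became 103 with the likelihood-ratio test, 120 with DESeq2, 208 with Xist as a covariate and 19 to 211 on leaving out a library (19 without CD replicate 1, 211 without CD replicate 3). Genes past the adjusted threshold numbered 1 with the likelihood-ratio test and 1 with Xist. Other complement genes at an unadjusted 0.01 numbered 1 with DESeq2 and 2 with Xist (Itgam and Csmd3). Low counts limit the precision of C3 (16 to 40 per library) and C5ar1 (9 to 41).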
